A study of Arabidopsis thaliana with 30 samples.

Results

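The WRKY genes of Arabidopsis thaliana were followed through the wild type Col-0 and 9 mutants of the GCN5 histone acetyltransferase complexes. The set held 47 WRKY loci, taken by locus code from a deposited table of 32548 genes. Other WRKY genes are not analysed here. WRKY proteins are plant transcription factors named after a conserved peptide in their DNA-binding domain, and most of them bind the W-box, a short DNA element with a TTGAC core. They are grouped by the number and type of their WRKY domains, and several are known as regulators of defence, senescence, phosphate uptake and trichome formation. Many WRKY genes carry W-boxes of their own and respond within minutes to pathogens, wounding or touch, partly downstream of mitogen-activated protein kinase cascades. GCN5 adds acetyl groups to histones at promoters, and ADA2 proteins are its partners in the complexes.

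Messenger RNA of whole seedlings grown for 12 days on plates in long days was sequenced in 30 libraries, 3 for each of 10 genotypes. The mutants were the double mutants ada2aspc (ada2a-/-spc-/-) and spcing1 (spc-/-ing1-/-) and the single mutants eaf6-/-, ada2a-/-, spc-/-, ing1-/-, sdrl-/-, ada2b-/- and gcn5-/-, set against the wild type Col-0. All plants were untreated, and the labels name neither the alleles nor separate growths, so p-values here reflect how far these libraries scatter, which may be technical. The series asks how shared and plant-specific subunits of the GCN5 complexes act on transcription, going by its title.

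Each gene has a normalised signal in every library, and the column totals lay between 30914000 and 41548748. ADA2A was at 8.32 to 19.9 in ada2a and 3.93 to 9.56 in ada2aspc, against 548.5 to 618.7 in Col-0. ING1 was at 131.5 to 175.1 in ing1 and 103.8 to 174.1 in spcing1, against 674.1 to 732.8 in Col-0. GCN5 was at 252.3 to 348.5 in gcn5, against 578.0 to 641.2 in Col-0, and ADA2B at 995.5 to 1217 in ada2b, against 1435 to 1535 in Col-0, so their signal was reduced and not absent. The genes mutated in eaf6, spc and sdrl were not checked. Of 7 markers of green shoot tissue none rose in any mutant, and 7 fell in ada2b and in gcn5, 6 in eaf6, 5 in spc, 4 in ing1 and ada2aspc, 3 in ada2a and spcing1 and 2 in sdrl. Among all genes tested 15.1% to 25.2% rose and 14.5% to 28.1% fell over the 9 mutants. The summed level of these markers was 688083 to 730806 in eaf6, 747991 to 889888 over the 18 libraries of ada2a, spc, ing1, sdrl and the double mutants, 271906 to 368967 in ada2b and 407783 to 424506 for gcn5, where Col-0 had 1002615 to 1081052. The part of green tissue in the WRKY values was not tested. In bulk seedlings fewer cells of a type and less RNA per cell cannot be told apart.

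Of the 47 genes, 46 had a signal of at least 10 in at least 3 libraries and were tested. WRKY41, a regulator of seed dormancy, was below 10 in every library and below 0.001 in 17 of 30. WRKY51, WRKY55, WRKY62 and WRKY30 reached a signal of 10 in 13, 12, 17 and 21 of 30 libraries, so their folds rest on values near the limit. Per kilobase of exon, the Col-0 signal was highest for WRKY3, with a mean of 1014, followed by WRKY65 at 792, WRKY70 at 785, WRKY15 at 708, WRKY1 at 696, WRKY11 at 681 and WRKY39 at 631. Among the genes that changed most in the mutants, WRKY33 stood at 459 per kilobase, WRKY18 at 93.2, WRKY40 at 75.8, WRKY22 at 71.5 and WRKY53 at 54.1 in Col-0. The Col-0 ranges of WRKY40 (58.1 to 100.6 per kilobase) and WRKY22 (63.6 to 77.3 per kilobase) overlapped, as did those of WRKY65 (757 to 818 per kilobase) and WRKY70 (609.5 to 963 per kilobase). The lowest tested genes were WRKY55 at 6.7 and WRKY51 at 7.3 per kilobase.

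WRKY transcripts were raised in the mutants more often than they were lowered. A gene passed the test at an adjusted p below 0.05 in limma, fitted to all 21868 tested genes and 30 libraries, and log2 fold changes are given ± SE on the log2(signal + 1) scale. In eaf6 29 of the 46 tested WRKY genes rose and 4 fell, where 25.2% of all tested genes rose and 25.9% fell. In spc 24 rose and 1 fell (20.3% and 19.7% of all genes), in ada2a 19 rose and 2 fell (15.1% and 14.5%), in ing1 20 rose and 1 fell (17.5% and 18.2%), and in sdrl 17 rose and 2 fell (17% and 18.9%). The double mutants had 19 rises and 3 falls in ada2aspc (21.7% and 22.8% of all genes) and 23 rises and 5 falls in spcing1 (20.9% and 23.9%). In gcn5 21 rose and 2 fell (18.2% and 24.5% of all genes), and in ada2b 20 rose and 9 fell (23.5% and 28.1%).

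The share of falls was highest in ada2b, but it depended on the scaling. With division by column totals ada2b had 30 rises and 3 falls, sdrl 14 rises and 4 falls, and spcing1 21 rises and 8 falls. With that scaling 10099 of all genes rose and 4379 fell in ada2b, 3034 and 5568 in sdrl, and 3582 and 7021 in spcing1. That scaling moves the median log2 fold change of all genes to 0.27 in ada2b and 0.17 in gcn5, and to between -0.15 and -0.10 in spcing1, sdrl, ada2a, ada2aspc and spc. The median log2 fold change of the 46 WRKY genes was 0.89 in eaf6, 0.45 in spcing1, 0.40 in spc, 0.37 in ada2aspc, 0.32 in ing1, 0.27 in sdrl, 0.26 in ada2a, 0.42 in gcn5 and 0.30 in ada2b, where the median of all genes lay between -0.05 and 0.01. All 9 contrasts share the 3 Col-0 libraries.

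Rises of at least 2-fold were more frequent among WRKY genes outside gcn5 and ada2b. There were 16 in eaf6 (9.08% of all genes), 14 in ada2a (4.12%), 13 in spc (5.47%), 11 in ing1 (4.6%), 7 in sdrl (4.53%), 11 in ada2aspc (5.46%) and 10 in spcing1 (5.99%). In gcn5 and ada2b 4 WRKY genes each rose at least 2-fold (3.43% and 3.1% of all genes), while 1 and 3 fell that far (6.85% and 12.9%). WRKY8 and WRKY50 passed in none of the 9 contrasts with Col-0.

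**Figure D1:**
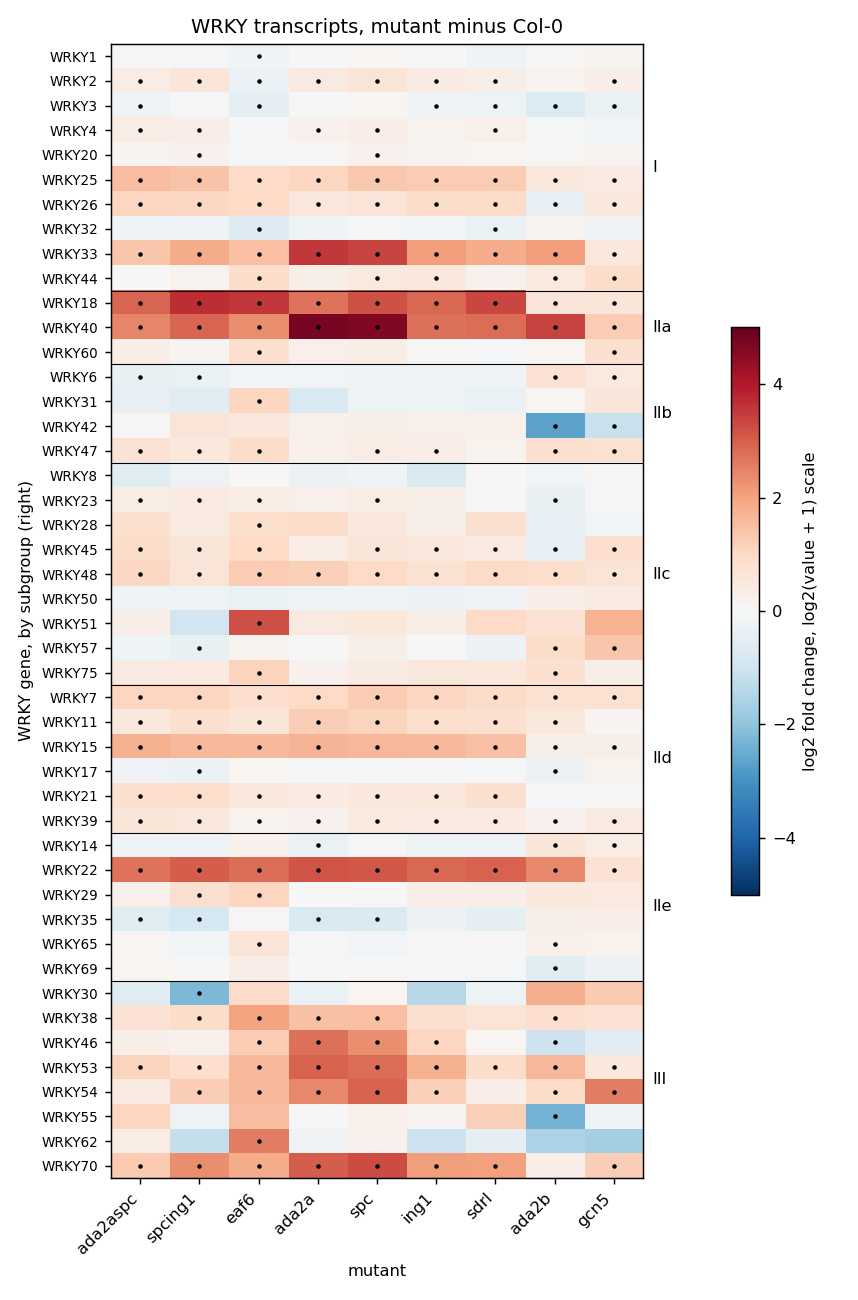
Log2 fold change against Col-0 (colour, log2(signal + 1) scale) of the 46 tested WRKY genes (rows, by subgroup) in 9 mutants (columns), with a dot where the adjusted p was below 0.05. WRKY40, WRKY33, WRKY18, WRKY22, WRKY53 and WRKY70 are red in most columns, while WRKY42 is blue in ada2b and gcn5. WRKY33, WRKY53 and WRKY70 are darkest in ada2a and spc and paler elsewhere.

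Known touch and handling genes were raised in the mutants too. All 6 of 6 listed touch genes rose in every mutant except gcn5, where 4 of 6 rose, and their summed level was 31332 to 67348 in ada2aspc, 72430 to 95690 in spcing1, 39430 to 45131 in eaf6, 50591 to 65145 in ada2a, 59646 to 66743 in spc, 49716 to 58687 in ing1, 79118 to 84026 in sdrl, 6214 to 11423 in the ada2b libraries and 2827 to 3827 in the gcn5 libraries, against 2314 to 2439 in Col-0. TCH4, a cell wall enzyme gene induced by touch, averaged 27665 in ada2a, 1067 in ada2b and, for gcn5, 400.2, where Col-0 had 592.5. TCH3, a touch-induced calmodulin-like gene, had means of 9177 for ada2a, 1440 for ada2b, 1038 for gcn5 and 447.4 for Col-0. CCA1, a morning gene of the circadian clock, had means of 148.9 for eaf6, 223.8 for ada2a, 22.1 for ada2b, 83.7 for gcn5 and 1462 for Col-0. Of 8 listed clock genes 1 rose in each mutant, while 7 fell in ing1, eaf6 and ada2aspc, 6 in spcing1, sdrl, ada2b and gcn5, 5 in spc and 3 in ada2a. For these touch and clock counts, 15.1% to 25.2% of all genes rose and 14.5% to 28.1% fell over the 9 mutants. The summed level of the clock genes was 33979 to 35680 in ada2a, 24823 to 26572 in eaf6, 21171 to 22449 in ada2b and 25572 to 27245 for gcn5, where Col-0 had 31275 to 33165. The part of handling and of the time of harvest in the WRKY values was not tested.

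The stretches before WRKY33, WRKY15 and WRKY40 are shown because these genes rose strongly yet differ in their matches to the W-box forms TTGACC and TTGACT. WRKY33 and WRKY15 hold several such matches and WRKY40 holds none in the 300 bases before the annotated start. The shorter core TTGAC, with another base after it, does occur before WRKY40. The stretches were read from RefSeq's TAIR10.1 genome as chr2:16107935-16108234 for WRKY33, chr2:9924586-9924885 for WRKY15 and chr1:30383261-30383560 for WRKY40, all on the plus strand. Capitals mark matches to TTGACC or TTGACT on either strand, which appear as GGTCAA or AGTCAA where they lie on the minus strand.
WRKY33: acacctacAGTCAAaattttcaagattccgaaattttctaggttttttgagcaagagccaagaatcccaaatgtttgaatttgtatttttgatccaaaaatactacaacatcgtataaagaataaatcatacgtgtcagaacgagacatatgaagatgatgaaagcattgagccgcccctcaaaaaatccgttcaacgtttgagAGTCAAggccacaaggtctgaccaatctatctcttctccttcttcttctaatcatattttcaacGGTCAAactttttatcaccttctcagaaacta
WRKY15: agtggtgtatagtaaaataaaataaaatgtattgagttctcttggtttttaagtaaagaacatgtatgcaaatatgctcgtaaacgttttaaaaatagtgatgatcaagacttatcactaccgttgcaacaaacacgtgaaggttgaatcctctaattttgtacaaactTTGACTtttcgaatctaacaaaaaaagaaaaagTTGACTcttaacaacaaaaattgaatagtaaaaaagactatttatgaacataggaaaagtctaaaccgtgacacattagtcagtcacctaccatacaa
WRKY40: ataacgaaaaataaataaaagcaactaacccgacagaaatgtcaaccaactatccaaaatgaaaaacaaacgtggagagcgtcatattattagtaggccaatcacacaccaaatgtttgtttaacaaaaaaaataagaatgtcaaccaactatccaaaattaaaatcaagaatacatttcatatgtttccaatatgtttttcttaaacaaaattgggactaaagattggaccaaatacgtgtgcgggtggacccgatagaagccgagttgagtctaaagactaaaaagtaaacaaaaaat

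Among the 47 WRKY genes, 20 had at least 1 W-box match (TTGACC or TTGACT) in this window (42.6%), compared with 8855 of 27443 protein-coding nuclear genes (32.3%). At least 2 W-boxes were present before 10 WRKY genes (21.3%) and before 7.91% of all genes. WRKY33 had 3 matches, at 292, 96 and 32 bases before the start on the minus strand, and WRKY15 had 2, at 131 and 98 bases before it on the plus strand. The G-box CACGTG was found before 5 WRKY genes (10.6%) and 7.09% of all genes, and CGCGTT, the core of the rapid stress response element, before 2 (4.26%) and 3.08%. These motifs do not overlap in their letters, and a match is a description of the sequence. WRKY18, WRKY40, WRKY22 and WRKY70, all raised at least 2-fold in every mutant other than gcn5 and ada2b, had no W-box match in the window. The shorter core TTGAC, with another base after it, does occur there before WRKY40, WRKY22 and WRKY70.

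**Figure D2:**
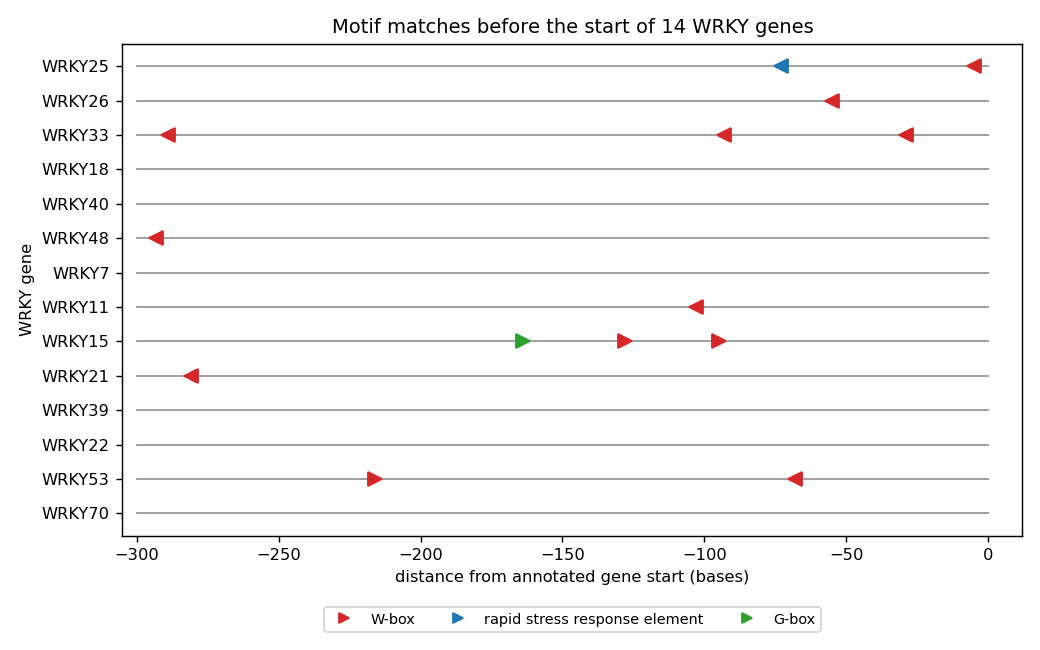
Matches to 3 motifs (colours; the arrowhead gives the strand) by distance in bases from the annotated gene start, for the 14 WRKY genes that rose in every mutant other than gcn5 and ada2b, contrasts that share the Col-0 libraries; 8.84% of all tested genes did so. W-box matches lie before 8 of the 14 genes, 3 of them before WRKY33 and 2 before WRKY15.

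Subgroup I proteins carry a pair of WRKY domains. WRKY33 is a substrate of the kinases MPK3 and MPK6 that drives camalexin synthesis and resistance to necrotrophic fungi. It was the member of this subgroup that rose most in every mutant but gcn5 and ada2aspc. WRKY33 (AT2G38470) had 2336, 3162 and 1898 in ada2aspc, 3156, 3737 and 3346 in spcing1 and 2503, 2395 and 3001 in eaf6. In ada2a WRKY33 was at 11037, 10518 and 11209, in spc at 10145, 8710.0 and 10204, in ing1 at 4543, 3621 and 3859.7 and in sdrl at 3885, 3121 and 3171. For ada2b, WRKY33 values were 2943, 2976 and 6862, and for gcn5 1531, 1422 and 1095, against 894, 871 and 1029.7 in Col-0. Every mutant library was above every Col-0 library. The log2 fold change was 3.55 ± 0.20 (adjusted p = 1.38e-14) in ada2a and 3.38 ± 0.20 (adjusted p = 3.27e-14) in spc, and 1.38 in ada2aspc to 2.1 in ing1 among ing1, sdrl, eaf6 and the double mutants. In ada2b it was 2.08 ± 0.20 (adjusted p = 5.14e-10), where replicate 3 was far above the other ada2b libraries, and 1.67 without it. In gcn5 it was 0.52 ± 0.20 (adjusted p = 0.035), a call that was lost without gcn5 replicate 1 or 2 or Col-0 replicate 1 or 2 (adjusted p = 0.0865 to 0.141).

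WRKY25 and WRKY26, close relatives of WRKY33 that act with it in heat tolerance, changed less than WRKY33 outside ada2aspc and gcn5. In ada2aspc the rise was 1.56 for WRKY25 and 1.38 for WRKY33. WRKY25 (AT2G30250) had 2153, 1699 and 1721 in ada2aspc, 1649.5, 1678 and 1759 in spcing1 and 1268, 1181 and 1242 in eaf6. In ada2a WRKY25 was at 1338, 1359 and 1320.4, in spc at 1519.6, 1651 and 1649.9, in ing1 at 1467, 1539.7 and 1496 and in sdrl at 1338, 1616 and 1594. For ada2b, WRKY25 values were 842, 999.9 and 939, and for gcn5 805, 977 and 745, against 626, 593 and 665 in Col-0. WRKY25 was above every Col-0 library in all mutant libraries. Its log2 fold changes ran from 0.97 in eaf6 to 1.56 in ada2aspc outside gcn5 and ada2b, and were 0.56 ± 0.09 (adjusted p = 8.96e-06) in ada2b and 0.42 ± 0.09 (adjusted p = 0.000547) in gcn5. WRKY26 rose in gcn5 (0.53 ± 0.10) and fell in ada2b (-0.42 ± 0.10), with 325 to 355 in the ada2b libraries and 639 to 679 in the gcn5 libraries, against 371 to 510.0 in Col-0. The fall in ada2b was lost with column totals (-0.16, adjusted p = 0.186).

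WRKY3, which with WRKY4 acts in resistance to necrotrophic fungi, and WRKY32 fell in some mutants. WRKY3 (AT2G03340) had 1975, 1938 and 2043 in ada2aspc, 2051, 2170.5 and 2072 in spcing1 and 1658, 1697 and 1563 in eaf6. In ada2a WRKY3 was at 2105, 2292 and 2131, in spc at 2337, 2241 and 2519, in ing1 at 2065, 1948 and 1920.5 and in sdrl at 1973, 1665 and 1932. For ada2b, WRKY3 values were 1436, 1384 and 1350.5, and for gcn5 1771, 1897 and 1683, against 2209.7, 2257 and 2234 in Col-0. The ada2b libraries held the lowest WRKY3 values and none of them reached gcn5. WRKY3 changed by -0.68 ± 0.07 (adjusted p = 4.03e-10) in ada2b, by -0.45 ± 0.07 (adjusted p = 1.44e-06) in eaf6, by -0.33 ± 0.07 (adjusted p = 0.000161) in gcn5 and by -0.27 ± 0.07 (adjusted p = 0.0015) in sdrl. Division by column totals ended the gcn5 call (-0.13, adjusted p = 0.0935). The falls in ing1 and ada2aspc (-0.18 and -0.17) were lost with median-of-ratios size factors (adjusted p = 0.0588 and 0.0656), without any of the 3 Col-0 libraries (adjusted p = 0.0563 to 0.0884), and also without ing1 replicate 2 or 3 or ada2aspc replicate 1 or 2 (adjusted p = 0.0754 to 0.116).

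WRKY32 (AT4G30935) had 509, 504 and 563 in ada2aspc, 526, 499.9 and 541 in spcing1 and 415, 395 and 339.6 in eaf6. In ada2a WRKY32 was at 489.5, 594 and 472, in spc at 563, 564 and 596, in ing1 at 539, 564 and 524 and in sdrl at 525, 462 and 431. For ada2b, WRKY32 values were 751, 649.8 and 611, and for gcn5 538, 570.3 and 467, against 523, 647 and 621 in Col-0. The eaf6 libraries lay below every Col-0 library, and the sdrl libraries overlapped them. WRKY32 fell by 0.64 in eaf6 (SE 0.11, adjusted p = 1.52e-05) and by 0.34 in sdrl (adjusted p = 0.0162), the second call being lost without sdrl replicate 3 or Col-0 replicate 2 or 3 (adjusted p = 0.0615 to 0.0884). With column totals WRKY32 passed as a rise in ada2b (0.43, adjusted p = 0.00117).

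WRKY2, known from germination and embryo polarity, rose in 7 mutants by 0.29 in sdrl to 0.63 in spc and fell in eaf6 (-0.31 ± 0.10). The eaf6 call was lost without eaf6 replicate 1 (adjusted p = 0.0965), and the sdrl call with column totals (0.21, adjusted p = 0.074) and without sdrl replicate 1 or 2 or Col-0 replicate 1 (adjusted p = 0.0523 to 0.108). WRKY44, also called TTG2, a regulator of trichomes and the seed coat, rose by 0.92 in eaf6 and 0.90 in gcn5. Its rises of 0.48 in spc, 0.53 in ing1 and 0.48 in ada2b were lost without single libraries. For spc these were spc replicate 2 or 3 or Col-0 replicate 2 or 3 (adjusted p = 0.0673 to 0.163), for ing1 ing1 replicate 1 or 2 or Col-0 replicate 2 (adjusted p = 0.0505 to 0.112), and for ada2b ada2b replicate 2 or 3 or Col-0 replicate 2 or 3 (adjusted p = 0.0519 to 0.133). The spc call was lost with column totals as well (0.39, adjusted p = 0.099). WRKY4 rose by 0.32 in spcing1 to 0.36 in ada2aspc. Its smaller rise in ada2a (0.21) was lost with column totals (0.13, adjusted p = 0.214) and without ada2a replicate 2 or 3 or any Col-0 library (adjusted p = 0.0615 to 0.209). That in sdrl (0.24) was lost with column totals (0.17, adjusted p = 0.0923) and without sdrl replicate 1 or Col-0 replicate 2 (adjusted p = 0.0893 to 0.165). With column totals WRKY4 passed as a rise in ada2b too (0.21, adjusted p = 0.0174). WRKY20 rose by 0.23 in spc and 0.21 in spcing1, both calls being lost with column totals (adjusted p = 0.13 and 0.213) and the second without spcing1 replicate 3 (adjusted p = 0.0541). WRKY1 fell in eaf6 (-0.21), a call lost with column totals (-0.17, adjusted p = 0.0566) and without eaf6 replicate 3 or Col-0 replicate 3 (adjusted p = 0.0811 to 0.101).

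Subgroup IIa consists of WRKY18, WRKY40 and WRKY60, which bind each other and are known as repressors in basal defence and abscisic acid signalling. WRKY40 had the largest rise of any WRKY gene in 3 of the mutants, ada2a, spc and ada2b. WRKY40 (AT1G80840) had 505, 723 and 419 in ada2aspc, 657, 772 and 820.2 in spcing1 and 453, 372 and 707 in eaf6. In ada2a WRKY40 was at 2511, 2938 and 2564, in spc at 2668, 2069.7 and 2546, in ing1 at 619.7, 677 and 707 and in sdrl at 589, 739.7 and 758. For ada2b, WRKY40 values were 811, 732 and 1841, and for gcn5 285, 249.9 and 183, against 90.9, 76.9 and 133 in Col-0. All 27 mutant libraries were above the 3 Col-0 libraries, and ada2a and spc stood above the other mutants. WRKY40 changed by 4.75 ± 0.25 (adjusted p = 4.37e-15) in ada2a, 4.61 ± 0.25 (adjusted p = 6.23e-15) in spc, 3.39 ± 0.25 (adjusted p = 2.2e-12) in ada2b and 1.26 ± 0.25 (adjusted p = 0.000173) in gcn5. Without ada2b replicate 3, the highest library of that genotype, the ada2b value was 2.97.

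WRKY18 followed another order. WRKY18 (AT4G31800) had 1211, 2252 and 997 in ada2aspc, 2091, 2383 and 2743 in spcing1 and 2024, 1994 and 2539 in eaf6. In ada2a WRKY18 was at 1174, 1236 and 1259, in spc at 1335, 1918 and 1979, in ing1 at 1268, 1381 and 1431 and in sdrl at 1692, 1885 and 2179. For ada2b, WRKY18 values were 294, 288 and 290.5, and for gcn5 339, 315 and 221, against 149, 186 and 232 in Col-0. Its highest levels were in spcing1 and eaf6, and the ada2b libraries lay close together just above Col-0. WRKY18 rose by 3.68 ± 0.20 (adjusted p = 3.44e-15) in spcing1, 3.54 ± 0.20 (adjusted p = 1.54e-14) in eaf6, 3.35 ± 0.20 (adjusted p = 3.58e-14) in sdrl and 2.71 ± 0.20 (adjusted p = 4.54e-12) in ada2a. In ada2b it rose by 0.64 ± 0.20 (adjusted p = 0.00826), which was lost without Col-0 replicate 1 (adjusted p = 0.069). In gcn5, whose libraries overlapped Col-0, it rose by 0.62 ± 0.20 (adjusted p = 0.0128), which was lost without gcn5 replicate 1 or 2 or Col-0 replicate 1 (adjusted p = 0.0539 to 0.0948). WRKY60 rose in gcn5 (0.82 ± 0.18) and eaf6 (0.85 ± 0.18) and passed in no other mutant.

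WRKY6 and WRKY42 of subgroup IIb are known repressors of the phosphate exporter gene PHO1. WRKY6 (AT1G62300) had 603, 651 and 652 in ada2aspc, 662, 635 and 672 in spcing1 and 748, 744 and 774 in eaf6. In ada2a WRKY6 was at 760.2, 636 and 857, in spc at 751, 695 and 710.5, in ing1 at 718, 742 and 710.0 and in sdrl at 715, 766 and 723. For ada2b, WRKY6 values were 1310.5, 1501 and 1282, and for gcn5 1206, 1298 and 984, against 924, 784 and 772 in Col-0. WRKY6 was above Col-0 in every gcn5 and ada2b library and below it in every ada2aspc and spcing1 library. It rose by 0.72 ± 0.10 (adjusted p = 3.31e-07) in ada2b and 0.49 ± 0.10 (adjusted p = 0.000174) in gcn5, and fell in ada2aspc (-0.38 ± 0.10 (adjusted p = 0.00231)) and spcing1 (-0.33 ± 0.10 (adjusted p = 0.00703)), the last call being lost without Col-0 replicate 1 (adjusted p = 0.0653).

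WRKY42 (AT4G04450) had 67.4, 57.2 and 57.6 in ada2aspc, 113, 91.9 and 72.4 in spcing1 and 97.2, 75.8 and 89.2 in eaf6. In ada2a WRKY42 was at 68.9, 70.7 and 68.0, in spc at 100.1, 55.3 and 66.5, in ing1 at 71.4, 65.4 and 67.2 and in sdrl at 58.8, 85.2 and 66.3. For ada2b, WRKY42 values were 10.5, 8.01 and 6.15, and for gcn5 37.6, 28.7 and 15.7, against 46.7, 52.6 and 77.6 in Col-0. The ada2b libraries were the lowest of all 30, and gcn5 lay between them and Col-0. WRKY42 changed by -2.69 ± 0.29 (adjusted p = 3.38e-09) in ada2b and -1.13 ± 0.29 (adjusted p = 0.00186) in gcn5. With a pseudocount of 16 in place of 1 the ada2b value was -1.61, since these values are close to 10. WRKY31 rose in eaf6 alone of the 9 contrasts with Col-0 (1.06 ± 0.37 (adjusted p = 0.0174)), which was lost without eaf6 replicate 3 or Col-0 replicate 2 (adjusted p = 0.0975 to 0.121).

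WRKY47 (AT4G01720) had 633, 505 and 551 in ada2aspc, 469, 494 and 469.7 in spcing1 and 656, 680.4 and 547 in eaf6. In ada2a WRKY47 was at 429, 374 and 381, in spc at 393, 446 and 447, in ing1 at 422, 399 and 449 and in sdrl at 358, 427 and 345. For ada2b, WRKY47 values were 578, 732 and 473, and for gcn5 572, 617 and 514, against 348, 369 and 292 in Col-0. WRKY47 was highest in ada2b, gcn5, eaf6 and ada2aspc, and each of their libraries was above Col-0. WRKY47 rose by 0.90 ± 0.13 (adjusted p = 1.22e-06) in eaf6, 0.80 ± 0.13 (adjusted p = 6.19e-06) in ada2b, 0.76 ± 0.13 (adjusted p = 2.23e-05) in gcn5, 0.74 ± 0.13 (adjusted p = 2.52e-05) in ada2aspc and 0.51 ± 0.13 (adjusted p = 0.00183) in spcing1. Smaller rises in spc and ing1 (0.35 and 0.34) were lost with column totals (adjusted p = 0.118 and 0.119), without spc replicate 2 or 3 or Col-0 replicate 3 for spc (adjusted p = 0.0896 to 0.171), and without any ing1 library or Col-0 replicate 1 or 3 for ing1 (adjusted p = 0.0513 to 0.22).

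Of subgroup IIc 9 genes were analysed. WRKY48, a negative regulator of basal defence, rose in all 9 contrasts. WRKY48 (AT5G49520) had 226, 192 and 231 in ada2aspc, 156, 123 and 233 in spcing1 and 265, 218 and 274 in eaf6. In ada2a WRKY48 was at 234, 209.9 and 271, in spc at 213, 182 and 231, in ing1 at 157, 195 and 189 and in sdrl at 188, 243 and 180.2. For ada2b, WRKY48 values were 188, 235 and 165, and for gcn5 160.3, 173 and 155, against 104, 86.7 and 125 in Col-0. All but the lowest spcing1 library were above every Col-0 library. The log2 fold change was largest in eaf6 (1.26 ± 0.19 (adjusted p = 2.51e-06)) and ada2a (1.18 ± 0.19 (adjusted p = 1.68e-05)), and smallest in gcn5 (0.64 ± 0.19 (adjusted p = 0.00777)) and spcing1 (0.66 ± 0.19 (adjusted p = 0.00564)). Leaving out Col-0 replicate 2 ended the gcn5 call (adjusted p = 0.0587), and the spcing1 call was lost without spcing1 replicate 3 (adjusted p = 0.0866).

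WRKY45 is known to activate PHT1;1, a gene for phosphate uptake. WRKY45 (AT3G01970) had 525, 424 and 568 in ada2aspc, 399, 428 and 385 in spcing1 and 485, 556 and 551 in eaf6. In ada2a WRKY45 was at 308, 306 and 437, in spc at 411, 432 and 364, in ing1 at 334, 447 and 393 and in sdrl at 310.2, 409 and 357. For ada2b, WRKY45 values were 221, 193 and 185, and for gcn5 501, 526 and 417, against 301, 197 and 319.9 in Col-0. The gcn5 libraries were far above those of ada2b, which overlapped the lowest Col-0 library. WRKY45 rose by 0.99 ± 0.16 (adjusted p = 8.45e-06) in eaf6, 0.91 ± 0.16 (adjusted p = 3.13e-05) in ada2aspc and 0.84 ± 0.16 (adjusted p = 9.93e-05) in gcn5, and fell in ada2b (-0.42 ± 0.16 (adjusted p = 0.0307)). The ada2b fall was lost with column totals (-0.16, adjusted p = 0.405), was -0.64 without Col-0 replicate 2, and was lost without ada2b replicate 2 or 3 and without Col-0 replicate 1 or 3 (adjusted p = 0.0743 to 0.181). Rises of 0.60 in spcing1, 0.59 in spc, 0.54 in ing1 and 0.42 in sdrl were each lost without Col-0 replicate 2 (adjusted p = 0.0588 to 0.37), that in ing1 also without ing1 replicate 2 (adjusted p = 0.0643), and that in sdrl also without sdrl replicate 2 or 3 (adjusted p = 0.0874 to 0.186) and with column totals (adjusted p = 0.102).

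WRKY57, known from drought tolerance and jasmonate-induced senescence, separated gcn5 and ada2b from the rest. WRKY57 (AT1G69310) had 401, 273 and 333 in ada2aspc, 288, 288 and 303 in spcing1 and 458, 449 and 392 in eaf6. In ada2a WRKY57 was at 365, 333 and 447, in spc at 435, 496 and 494, in ing1 at 325, 399.5 and 420.3 and in sdrl at 308, 308 and 314. For ada2b, WRKY57 values were 725, 753 and 703, and for gcn5 1014, 1090.2 and 908, against 407, 332 and 413 in Col-0. All gcn5 and ada2b libraries were above all other libraries, gcn5 highest. WRKY57 rose by 1.39 ± 0.13 (adjusted p = 4.56e-10) in gcn5 and 0.93 ± 0.13 (adjusted p = 4.34e-07) in ada2b. It fell in spcing1 (-0.38 ± 0.13 (adjusted p = 0.0147)), which was lost without Col-0 replicate 1 or 3 (adjusted p = 0.0606 and 0.0688).

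WRKY51, which with WRKY50 represses jasmonate responses, was near the detection limit except in eaf6. WRKY51 (AT5G64810) had 6.81, 14.8 and 3.96 in ada2aspc, 4.55, 6.08 and 0.0149 in spcing1 and 54.3, 53.6 and 79.9 in eaf6. In ada2a WRKY51 was at 11.3, 8.96 and 5.2, in spc at 17.5, 7.01 and 5.15, in ing1 at 8.53, 3.03 and 12.9 and in sdrl at 9.86, 9.16 and 20.4. For ada2b, WRKY51 values were 17.1, 16.6 and 3.22, and for gcn5 33.8, 36.9 and 7.13, against 1.76, 7.62 and 11.5 in Col-0. The eaf6 libraries were the 3 highest of all. WRKY51 rose by 3.23 ± 0.75 (adjusted p = 0.000651) in eaf6, a value that was 1.78 with a pseudocount of 16. In gcn5 the difference was 1.73 ± 0.75 (adjusted p = 0.0642) and did not pass, but it passed without gcn5 replicate 3 (2.45, adjusted p = 0.015) or Col-0 replicate 3 (2.18, adjusted p = 0.0397), with a pseudocount of 16 (0.80, adjusted p = 0.0215) and with column totals (1.91, adjusted p = 0.0329). WRKY75, known from phosphate starvation and root hairs, rose in eaf6 (1.13 ± 0.23) and ada2b (0.79 ± 0.23), the second call being lost without Col-0 replicate 2 (adjusted p = 0.0508). WRKY28, an activator of salicylic acid synthesis, passed in eaf6 (0.87 ± 0.36), where 1 Col-0 library was inside the eaf6 range. That call was lost without any eaf6 library or Col-0 replicate 2 or 3 (adjusted p = 0.0549 to 0.213), and the value was 1.35, adjusted p = 0.0027, without Col-0 replicate 1. WRKY23, a gene of auxin-dependent root development, rose by 0.44 in spcing1 and fell in ada2b (-0.38 ± 0.14). The spcing1 call was lost without spcing1 replicate 1 (adjusted p = 0.0503), and the ada2b call with column totals (-0.12, adjusted p = 0.471) and without ada2b replicate 1 or Col-0 replicate 1 (adjusted p = 0.0826 to 0.113). Rises of WRKY23 in eaf6, ada2aspc and spc (0.37, 0.37 and 0.37) were lost as well, in eaf6 without eaf6 replicate 1 or 3 or Col-0 replicate 2 or 3 (adjusted p = 0.0521 to 0.0894), in ada2aspc without ada2aspc replicate 3 or Col-0 replicate 2 or 3 (adjusted p = 0.0596 to 0.298), where the value without ada2aspc replicate 3 was 0.18, and in spc without spc replicate 1 or 2 or Col-0 replicate 2 or 3 (adjusted p = 0.0673 to 0.113).

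Subgroup IId proteins bind calmodulin, and WRKY7, WRKY11, WRKY15, WRKY21 and WRKY39 rose in each mutant other than gcn5 and ada2b. WRKY15, known from growth under osmotic stress, had the largest rises here. WRKY15 (AT2G23320) had 3000.2, 3069 and 3137 in ada2aspc, 2849, 2733 and 2769 in spcing1 and 2865, 2582 and 2850.5 in eaf6. In ada2a WRKY15 was at 3148, 2698 and 3007, in spc at 2788, 3206 and 2709, in ing1 at 2813, 2746 and 2774 and in sdrl at 2554, 2385 and 2637. For ada2b, WRKY15 values were 903, 1074 and 1433, and for gcn5 1171, 1201 and 968, against 1019.7, 848 and 859 in Col-0. The 21 libraries of the 7 other mutants lay between 2385 and 3206, above every library of ada2b, gcn5 and Col-0. The log2 fold change was 1.48 in sdrl to 1.76 in ada2aspc, with adjusted p of 2.74e-12 or below. In ada2b (0.30 ± 0.11 (adjusted p = 0.0203)) the call was lost without ada2b replicate 3 (0.12, adjusted p = 0.308) or Col-0 replicate 2 or 3 (adjusted p = 0.0771 to 0.0872). In gcn5 (0.29 ± 0.11 (adjusted p = 0.0293)) it was lost without gcn5 replicate 1 or 2 or Col-0 replicate 2 or 3 (adjusted p = 0.103 to 0.129). Division by column totals gave WRKY15 0.56 in ada2b and 0.49 in gcn5.

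WRKY7, a negative regulator of defence, rose in every mutant, gcn5 and ada2b included. WRKY7 (AT4G24240) had 1724, 1834 and 1871 in ada2aspc, 1829.6, 1788 and 1856 in spcing1 and 1589, 1435 and 1600.3 in eaf6. In ada2a WRKY7 was at 1763, 1709.5 and 1728, in spc at 2118, 2225 and 1985, in ing1 at 1766, 1986 and 1782 and in sdrl at 1679, 1541 and 1726. For ada2b, WRKY7 values were 1446, 1442 and 1519, and for gcn5 1513, 1498 and 1421, against 853, 878 and 864 in Col-0. The lowest mutant library, at 1421, was far above the highest Col-0 library, at 878. The log2 fold change ran from 0.76 in ada2b to 1.28 in spc, each with an SE of 0.06. In ada2b it was 0.76 ± 0.06 (adjusted p = 2.01e-11) and in gcn5 0.77 ± 0.06 (adjusted p = 4.64e-11).

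WRKY11 and WRKY17 are known negative regulators of basal resistance. WRKY11 rose in every mutant except gcn5, by 0.53 in ada2b to 1.21 in ada2a. The ada2b value was 0.32, adjusted p = 0.00939, without ada2b replicate 3. WRKY17 fell in ada2b (-0.28 ± 0.11) and spcing1 (-0.29 ± 0.11). The ada2b call was lost with column totals (-0.02, adjusted p = 0.901) and without ada2b replicate 1 or 3 or any Col-0 library (adjusted p = 0.0553 to 0.169), and the spcing1 call with median-of-ratios size factors (adjusted p = 0.0612) and without spcing1 replicate 1 or 2 or any Col-0 library (adjusted p = 0.055 to 0.138). WRKY21 rose by 0.40 in ada2a to 0.88 in spcing1 and passed in neither gcn5 nor ada2b, except in ada2b with column totals (0.19, adjusted p = 0.0365). WRKY39 rose in every mutant, from 0.18 in eaf6 to 0.61 in ada2aspc. Of these calls 3 were lost without single libraries. They were that in eaf6, without eaf6 replicate 2 or 3 or Col-0 replicate 2 or 3 (adjusted p = 0.0578 to 0.117), that in ada2a, without ada2a replicate 3 or Col-0 replicate 2 or 3 (adjusted p = 0.0513 to 0.101) and with column totals (0.12, adjusted p = 0.167), and that in ada2b, without Col-0 replicate 3 (adjusted p = 0.0534), which was 0.47, adjusted p = 6.03e-07, with column totals.

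WRKY22 and WRKY29 of subgroup IIe are known outputs of the flagellin receptor FLS2 and its kinase cascade. WRKY22 (AT4G01250) had 648, 593 and 629 in ada2aspc, 649, 918 and 777 in spcing1 and 665, 562 and 749.6 in eaf6. In ada2a WRKY22 was at 788, 882 and 861, in spc at 941, 799.5 and 747, in ing1 at 732, 686 and 681 and in sdrl at 729, 745 and 732. For ada2b, WRKY22 values were 418, 371 and 839, and for gcn5 163, 165 and 140.0, against 97.7, 103 and 84.4 in Col-0. All 27 mutant libraries were above the Col-0 libraries, and gcn5 was the lowest mutant. WRKY22 rose by 2.71 in ada2aspc to 3.14 in ada2a with an SE of 0.18, by 2.41 ± 0.18 (adjusted p = 1.72e-12) in ada2b and by 0.71 ± 0.18 (adjusted p = 0.00173) in gcn5. Without ada2b replicate 3, which stood above the other ada2b libraries here too, the ada2b value was 2.05. WRKY29 passed in eaf6 (1.07 ± 0.25) and spcing1 (0.80 ± 0.25) but in no other mutant, and the spcing1 call was lost without Col-0 replicate 2 (adjusted p = 0.0693).

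WRKY35 (AT2G34830) had 90.7, 89.7 and 100.4 in ada2aspc, 87.5, 60.3 and 87.6 in spcing1 and 213, 120.0 and 128 in eaf6. In ada2a WRKY35 was at 68.3, 85.6 and 96.8, in spc at 109, 83.3 and 70.6, in ing1 at 102, 133 and 119.7 and in sdrl at 66.7, 116 and 131. For ada2b, WRKY35 values were 188, 159 and 179, and for gcn5 195, 186 and 155, against 182, 127 and 124 in Col-0. WRKY35 was lower in ada2a, spc and the double mutants than in any Col-0 library, and overlapped Col-0 in the other genotypes. It fell in spcing1 (-0.87 ± 0.24 (adjusted p = 0.00402)), ada2a (-0.77 ± 0.24 (adjusted p = 0.0152)), spc (-0.71 ± 0.24 (adjusted p = 0.0194)) and ada2aspc (-0.60 ± 0.24 (adjusted p = 0.0442)). The call in ada2a was lost without ada2a replicate 1 or Col-0 replicate 1 (adjusted p = 0.0819 and 0.0999). That in spc was lost without spc replicate 2 or 3 or Col-0 replicate 1 (adjusted p = 0.0525 to 0.119), and that in ada2aspc without any ada2aspc library or Col-0 replicate 1 (adjusted p = 0.0593 to 0.213). WRKY65 rose in eaf6 (0.65 ± 0.09) and ada2b (0.25 ± 0.09), the second call being lost without ada2b replicate 2 or Col-0 replicate 3 (adjusted p = 0.0834 to 0.148) and amounting to 0.52 with column totals. WRKY14 rose in ada2b (0.61 ± 0.13) and gcn5 (0.36 ± 0.13), and the gcn5 call was lost without gcn5 replicate 2 or Col-0 replicate 2 or 3 (adjusted p = 0.0723 to 0.197). A fall of WRKY14 in ada2a (-0.34 ± 0.13) was lost without ada2a replicate 1 or 2 or any Col-0 library (adjusted p = 0.065 to 0.246) and with median-of-ratios size factors (adjusted p = 0.0613). WRKY69 fell in ada2b (-0.51 ± 0.16), which was lost with column totals (-0.25, adjusted p = 0.19) and without ada2b replicate 1 or Col-0 replicate 1 (adjusted p = 0.0508 to 0.0924).

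Subgroup III holds several regulators of salicylic acid responses and leaf senescence. WRKY53 is a positive regulator of senescence that binds the kinase MEKK1. WRKY53 (AT4G23810) had 187, 174 and 173 in ada2aspc, 218, 112 and 126 in spcing1 and 285, 223 and 259.9 in eaf6. In ada2a WRKY53 was at 639.6, 699.6 and 555, in spc at 536, 569 and 605, in ing1 at 202, 294 and 356 and in sdrl at 113, 166 and 193. For ada2b, WRKY53 values were 216, 252 and 322, and for gcn5 109.9, 134 and 112, against 68.3, 76.6 and 101 in Col-0. It was highest in ada2a and spc, and all mutant libraries were above the Col-0 libraries. WRKY53 rose by 2.94 ± 0.22 (adjusted p = 5.72e-12) in ada2a, 2.80 ± 0.22 (adjusted p = 1.44e-11) in spc and 1.67 ± 0.22 (adjusted p = 2.01e-07) in ada2b, and by 0.84 in spcing1 to 1.76 in ing1 in the remaining mutants but gcn5. Without spcing1 replicate 1 the value in spcing1, 0.84, was 0.55. In gcn5 (0.54 ± 0.22 (adjusted p = 0.0462)) the call was lost with a pseudocount of 16 and without any gcn5 library or Col-0 replicate 1 or 2 (adjusted p = 0.0605 to 0.177).

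WRKY70 is a node between salicylic acid and jasmonate signalling, and WRKY54 is its closest relative. WRKY70 (AT3G56400) had 2866, 3898 and 1931 in ada2aspc, 5738, 5069.8 and 6168 in spcing1 and 3554, 4346 and 4388 in eaf6. In ada2a WRKY70 was at 9983, 10110.0 and 7579, in spc at 9297, 11465 and 12487, in ing1 at 4704, 5058 and 4921 and in sdrl at 5047, 4576 and 4561. For ada2b, WRKY70 values were 1104, 1581 and 1634, and for gcn5 3174, 2955 and 2045, against 896, 1150.2 and 1416 in Col-0. The gcn5 libraries were above Col-0, and those of ada2b overlapped it. WRKY70 rose by 1.29 in ada2aspc to 3.28 in spc outside gcn5 and ada2b, and by 1.24 ± 0.19 (adjusted p = 4.22e-06) in gcn5. In ada2b the difference was 0.32 ± 0.19 (adjusted p = 0.16) and did not pass, but it did with column totals (0.58, adjusted p = 0.00786) or without ada2b replicate 1 (0.50, adjusted p = 0.042).

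WRKY54 (AT2G40750) had 275, 315 and 231 in ada2aspc, 482, 406 and 552 in spcing1 and 515, 612 and 732 in eaf6. In ada2a WRKY54 was at 1011, 1454 and 847, in spc at 1243, 1528 and 1928, in ing1 at 363, 487 and 553 and in sdrl at 254, 262 and 239. For ada2b, WRKY54 values were 383, 566 and 247, and for gcn5 1426, 1447 and 811, against 159, 184 and 274 in Col-0. WRKY54 reached the level of ada2a and spc in gcn5, and was much lower in ada2b. It rose by 2.94 ± 0.25 (adjusted p = 8.44e-11) in spc, 2.56 ± 0.25 (adjusted p = 1.68e-09) in gcn5, 2.42 ± 0.25 (adjusted p = 6.07e-09) in ada2a and 0.91 ± 0.25 (adjusted p = 0.00317) in ada2b, but passed in neither sdrl nor ada2aspc (0.33 and 0.44). WRKY55, a promoter of senescence, lies 919 bases from WRKY54 in the genome. WRKY55 (AT2G40740) had 9.7, 13.8 and 21.7 in ada2aspc, 4.71, 11.9 and 2.07 in spcing1 and 31.6, 17.5 and 14.6 in eaf6. In ada2a WRKY55 was at 5.79, 8.96 and 4.15, in spc at 4.2, 15.5 and 6.16, in ing1 at 5.4, 4.04 and 13.9 and in sdrl at 6.81, 19.3 and 27.2. For ada2b, WRKY55 values were 1.71, 0 and 0, and for gcn5 4.59, 13.6 and 2.11, against 1.74, 7.66 and 14.6 in Col-0. WRKY55 was listed at 0 in 2 ada2b libraries and was below 10 in most others. Its fall in ada2b (-2.36 ± 0.72 (adjusted p = 0.00704)) was lost with a pseudocount of 16 (-0.50, adjusted p = 0.108) and without Col-0 replicate 3 (-1.81, adjusted p = 0.0612).

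WRKY46, a regulator of salicylic acid and osmotic responses, had 14, 31 and 42.6 in ada2b, against 27.6, 55.9 and 107 in Col-0. The Col-0 libraries were spread widely and the ada2b libraries overlapped them. WRKY46 rose in ada2a (2.77 ± 0.38), spc (2.31 ± 0.38), eaf6 (1.26 ± 0.38) and ing1 (1.08 ± 0.38), and fell in ada2b (-1.02 ± 0.38). Without Col-0 replicate 1 the eaf6 value was 0.78, adjusted p = 0.0963, and the ing1 value was 0.59, adjusted p = 0.255. The ing1 call was lost without ing1 replicate 2 or 3 or Col-0 replicate 1 or 2 (adjusted p = 0.0583 to 0.255). The ada2b call was lost with column totals (-0.77, adjusted p = 0.0776) and without ada2b replicate 1 or Col-0 replicate 2 or 3 (adjusted p = 0.0571 to 0.251), with values of -0.58 without ada2b replicate 1 and -0.55 without Col-0 replicate 3.

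WRKY38 and WRKY62 are negative regulators of basal resistance that bind the deacetylase HDA19. WRKY38 rose by 0.86 in ada2b to 2.0 in eaf6, with 109.7, 197 and 53.2 in ada2b, against 72.5, 38.8 and 67.3 in Col-0. The ada2b libraries overlapped Col-0, and the ada2b value was 0.41, adjusted p = 0.357, without ada2b replicate 2 and 1.34, adjusted p = 0.00166, without ada2b replicate 3. The ada2b call was lost without ada2b replicate 1 or 2 or Col-0 replicate 2 (adjusted p = 0.0908 to 0.357), and the spcing1 call without spcing1 replicate 1 or 3 or Col-0 replicate 2 (adjusted p = 0.0649 to 0.193) and with column totals (0.81, adjusted p = 0.0599). WRKY62 passed in eaf6 (2.56 ± 0.93), with 42.2, 103 and 73.8 in eaf6, against 17, 5.68 and 12.6 in Col-0. That call was lost without eaf6 replicate 2 or 3 or Col-0 replicate 2 (adjusted p = 0.0563 to 0.0968), and the value was 1.64, adjusted p = 2.31e-05, with a pseudocount of 16. WRKY30, known from oxidative stress tolerance, fell in spcing1 (-2.26 ± 0.84), where its values were 0.112, 6.07 and 4.07, against 15, 12.2 and 19.9 in Col-0. The value was -1.45, adjusted p = 0.195, without spcing1 replicate 1 and -0.71, adjusted p = 0.066, with a pseudocount of 16, and the call was also lost without Col-0 replicate 1 or 3 (adjusted p = 0.0573 and 0.0826).

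**Figure D3:**
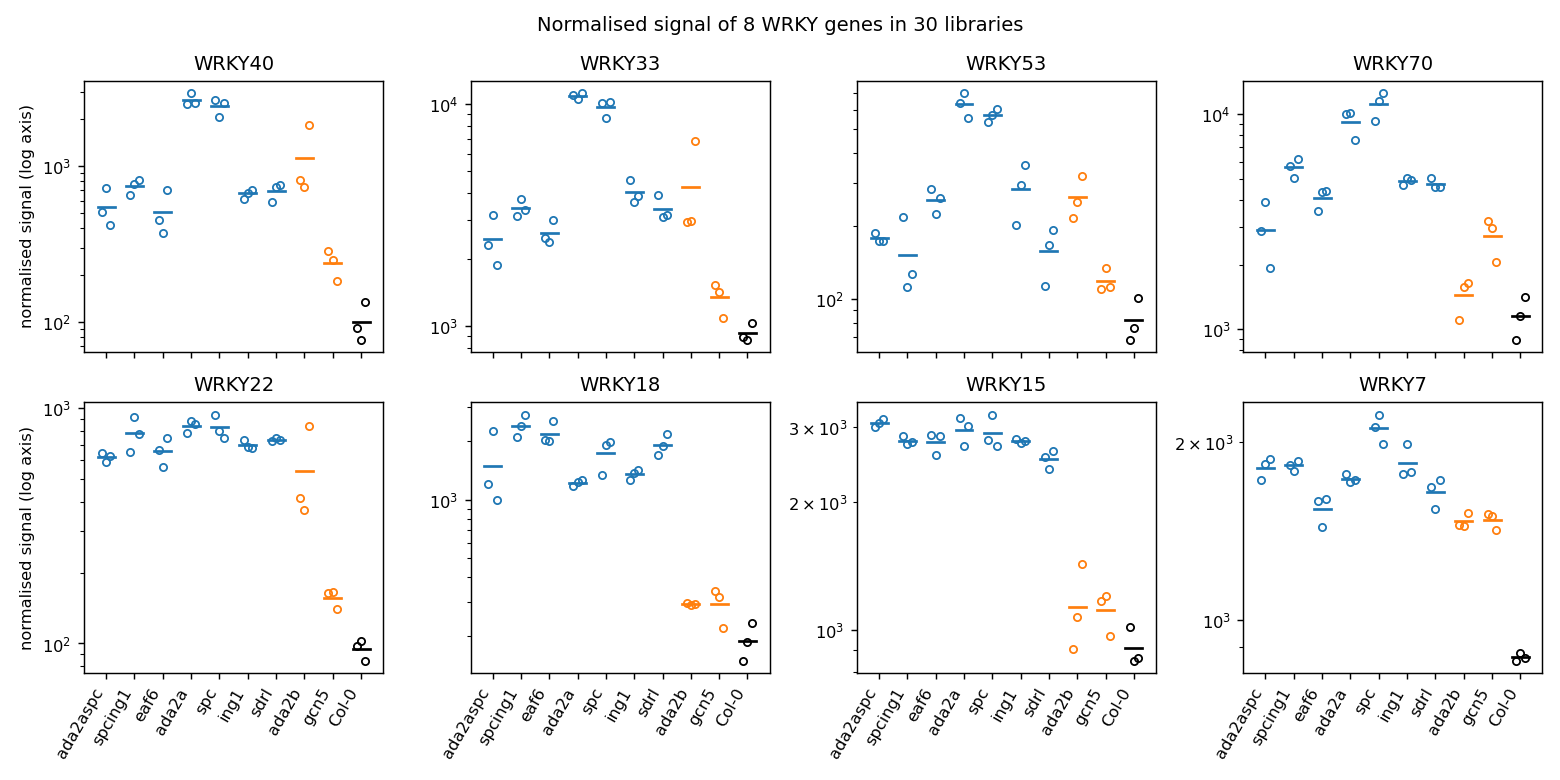
Normalised signal (log axis) of 8 WRKY genes in the 3 libraries of each genotype (points), with the mean as a bar. WRKY18 and WRKY15 are far above Col-0 in the mutants drawn in blue and close to it in ada2b and gcn5 (orange), while WRKY40, WRKY33 and WRKY22 are raised in ada2b as well, with replicate 3 of ada2b above the others.

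ADA2B is the ADA2 form of the conserved GCN5 complex, and set directly against gcn5, ada2b had 6 higher and 11 lower WRKY genes (19.6% and 22.6% of all genes). The higher ones were WRKY40 (2.13 ± 0.25 (adjusted p = 1e-07)), WRKY22 (1.70 ± 0.18 (adjusted p = 1.06e-08)), WRKY33 (1.55 ± 0.20 (adjusted p = 3.83e-07)), WRKY53 (1.13 ± 0.22 (adjusted p = 0.00014)), WRKY11 (0.38 ± 0.12) and WRKY32 (0.35 ± 0.11 (adjusted p = 0.0102)). For WRKY40, WRKY22, WRKY33 and WRKY53 the lowest ada2b library was above the highest gcn5 library. Without ada2b replicate 3 the differences of WRKY40, WRKY22 and WRKY33 were 1.71, 1.33 and 1.15 and still passed. The WRKY11 difference was 0.17, adjusted p = 0.195, without ada2b replicate 3, and its call was lost without gcn5 replicate 3 or ada2b replicate 3 (adjusted p = 0.104 to 0.195). The WRKY32 call was lost without gcn5 replicate 3 or ada2b replicate 1 (adjusted p = 0.0729 to 0.0793).

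Lower in ada2b than in gcn5 were WRKY54 (-1.65 ± 0.25 (adjusted p = 4.98e-06)), WRKY42 (-1.56 ± 0.29 (adjusted p = 6.35e-05)), WRKY45 (-1.26 ± 0.16 (adjusted p = 3.45e-07)), WRKY26 (-0.96 ± 0.10 (adjusted p = 2.05e-08)), WRKY70 (-0.92 ± 0.19 (adjusted p = 0.000277)), WRKY60 (-0.71 ± 0.18), WRKY57 (-0.46 ± 0.13), WRKY17 (-0.44 ± 0.11), WRKY3 (-0.36 ± 0.07) and WRKY39 (-0.25 ± 0.06). Each of these 10 genes had all ada2b libraries below all gcn5 libraries. The share of all genes that separate in this way was not counted. WRKY42 differed by -0.81 with a pseudocount of 16. WRKY55 was lower as well (-2.18 ± 0.72 (adjusted p = 0.0155)), but the call was lost with a pseudocount of 16 (-0.43, adjusted p = 0.189) and without gcn5 replicate 2 or ada2b replicate 2 or 3 (adjusted p = 0.0566 to 0.115). The touch genes also differed, with 6 of 6 higher in ada2b, and their part in these differences was not tested.

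**Figure D4:**
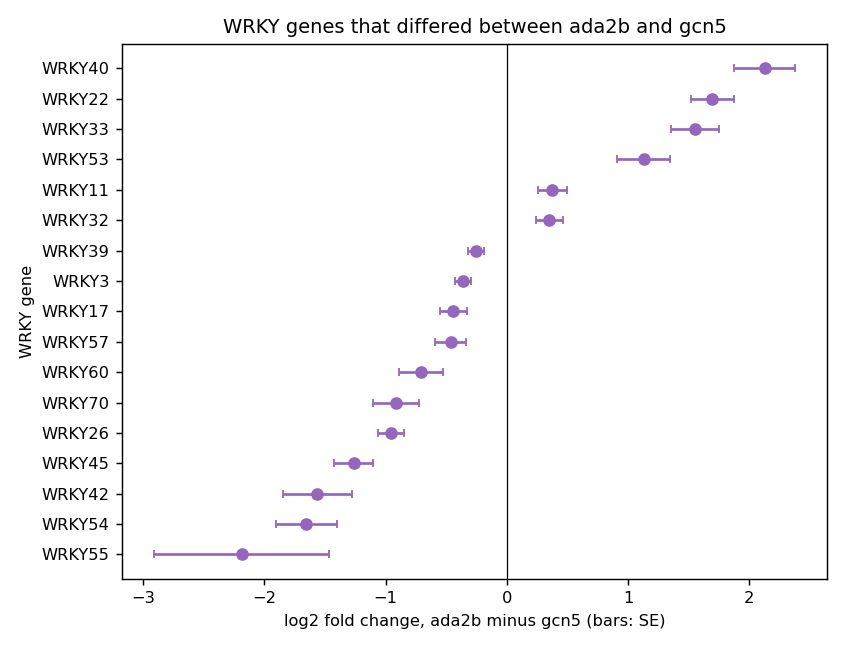
Log2 fold change of ada2b minus gcn5 (points, bars give the SE; 3 libraries each) for the 17 WRKY genes with an adjusted p below 0.05. WRKY40, WRKY22, WRKY33 and WRKY53 are more than 1 above 0, and WRKY55, WRKY54, WRKY42 and WRKY45 more than 1 below it.

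ADA2A is the other ADA2 form, and ada2a differed from ada2b in 23 higher and 10 lower WRKY genes (33.5% and 30.2% of all genes). Against gcn5 18 were higher and 12 lower in ada2a (28.6% and 23.4%). With column totals the splits were 16 higher and 16 lower against ada2b, and 12 higher and 19 lower against gcn5, and that scaling moves the median of all genes to -0.33 and -0.28. Of all genes 4972 were then higher and 11071 lower against ada2b, and 4016 higher and 10052 lower against gcn5. WRKY70 was higher in ada2a than in ada2b by 2.69 ± 0.19 (adjusted p = 3.92e-13) and than in gcn5 by 1.77 ± 0.19 (adjusted p = 4.96e-09). WRKY40 was higher by 1.37 ± 0.25 and 3.50 ± 0.25, WRKY33 by 1.48 ± 0.20 and 3.03 ± 0.20, and WRKY18 by 2.07 ± 0.20 and 2.09 ± 0.20, in the same order. WRKY7, higher in ada2a by 0.24 and 0.23, was at -0.10 and -0.05 with column totals, where neither passed. WRKY35 was lower in ada2a, with differences of -1.07 ± 0.24 against ada2b and -1.09 ± 0.24 against gcn5.

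For part of the WRKY genes the double mutants did not add up the rises of their single mutants. In ada2aspc 6 WRKY genes exceeded their level in ada2a and 7 were below it (6.77% and 7.93% of all genes), and 3 exceeded and 10 were below their level in spc (4.89% and 7.02%). WRKY40 was lower in ada2aspc, with differences of -2.31 ± 0.25 (adjusted p = 1.43e-07) against ada2a and -2.17 ± 0.25 (adjusted p = 4.68e-07) against spc. WRKY33 differed by -2.18 ± 0.20 (adjusted p = 9.16e-09) and -2.0 ± 0.20 (adjusted p = 3.32e-08), WRKY53 by -1.81 ± 0.22 and -1.67 ± 0.22, and WRKY70 by -1.72 ± 0.19 and -1.98 ± 0.19, in the same order. WRKY54 differed by -1.98 ± 0.25 and -2.50 ± 0.25, and WRKY46 by -2.47 ± 0.38 and -2.01 ± 0.38. For these 6 genes every ada2aspc library was below every ada2a and spc library, and the share of all genes that do so was not counted. Both contrasts share the ada2aspc libraries.

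In spcing1 3 WRKY genes exceeded their level in spc and 8 were below it (3.61% and 3.45% of all genes). The lower ones included WRKY46 (-2.11 ± 0.38), WRKY53 (-1.96 ± 0.22), WRKY54 (-1.69 ± 0.25), WRKY40 (-1.69 ± 0.25 (adjusted p = 3.06e-05)), WRKY33 (-1.5 ± 0.20 (adjusted p = 6.15e-06)) and WRKY70 (-0.96 ± 0.19). Against ing1, in which these genes were already lower than in spc, 2 were higher and 1 lower in spcing1 (1.78% and 1.04% of all genes). They were WRKY18 (0.82 ± 0.20 (adjusted p = 0.0208)), WRKY21 (0.31 ± 0.08 (adjusted p = 0.0295)) and, lower, WRKY53 (-0.92 ± 0.22 (adjusted p = 0.0169)). This count was 0 without ing1 replicate 2 or 3 or spcing1 replicate 2 or 3. The calls were lost without any ing1 library or spcing1 replicate 2 or 3 (adjusted p = 0.0624 to 0.103) for WRKY18, ing1 replicate 2 or 3 or spcing1 replicate 2 or 3 (adjusted p = 0.0712 to 0.193) for WRKY21 and ing1 replicate 2 or 3 or spcing1 replicate 2 or 3 (adjusted p = 0.0852 to 0.157) for WRKY53.

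WRKY22, WRKY18 and WRKY15 passed in neither contrast of ada2aspc with its single mutants, with differences of -0.44 ± 0.18 and -0.41 ± 0.18 for WRKY22, 0.19 ± 0.20 and -0.30 ± 0.20 for WRKY18, and 0.06 ± 0.11 and 0.08 ± 0.11 for WRKY15. All WRKY22 libraries of ada2aspc were nevertheless below those of ada2a and spc. WRKY26 and WRKY21 were higher in ada2aspc than in ada2a (0.49 ± 0.10 and 0.44 ± 0.08) and than in spc (0.40 ± 0.10 and 0.31 ± 0.08), the calls against spc being lost without spc replicate 2 (adjusted p = 0.053) for WRKY26 and spc replicate 1 or ada2aspc replicate 2 (adjusted p = 0.05 to 0.0711) for WRKY21. WRKY25 was higher in ada2aspc than in ada2a (0.46 ± 0.09 (adjusted p = 0.000746)). Touch genes were lower in ada2aspc as well, 4 of 6 against ada2a and 4 of 6 against spc, while 1 of 6 rose and 1 fell in spcing1 against spc. Their part in the lower WRKY values was not tested.

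Non-additivity was tested as the double mutant minus both single mutants plus Col-0. It was negative for 17 WRKY genes and positive for 0 in ada2aspc (10.8% and 7.76% of all genes), and negative for 19 and positive for 0 in spcing1 (10.7% and 7.95%). At an unadjusted p below 0.05 2 were positive and 18 negative in ada2aspc, and 0 were positive and 20 negative in spcing1. With column totals 1 passed as positive and 15 as negative in ada2aspc, where 2751 and 1976 of all genes did. The largest deviations in ada2aspc were -6.93 ± 0.36 (adjusted p = 3.56e-15) for WRKY40 and -5.56 ± 0.28 (adjusted p = 3.01e-15) for WRKY33, and in spcing1 -4.45 ± 0.36 (adjusted p = 1.38e-10) for WRKY40 and -3.72 ± 0.31 (adjusted p = 2.56e-10) for WRKY53. WRKY22, at -3.55 ± 0.25 in ada2aspc and -2.97 ± 0.25 in spcing1, also deviated, although it passed in neither contrast of ada2aspc with its single mutants.

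**Figure D5:**
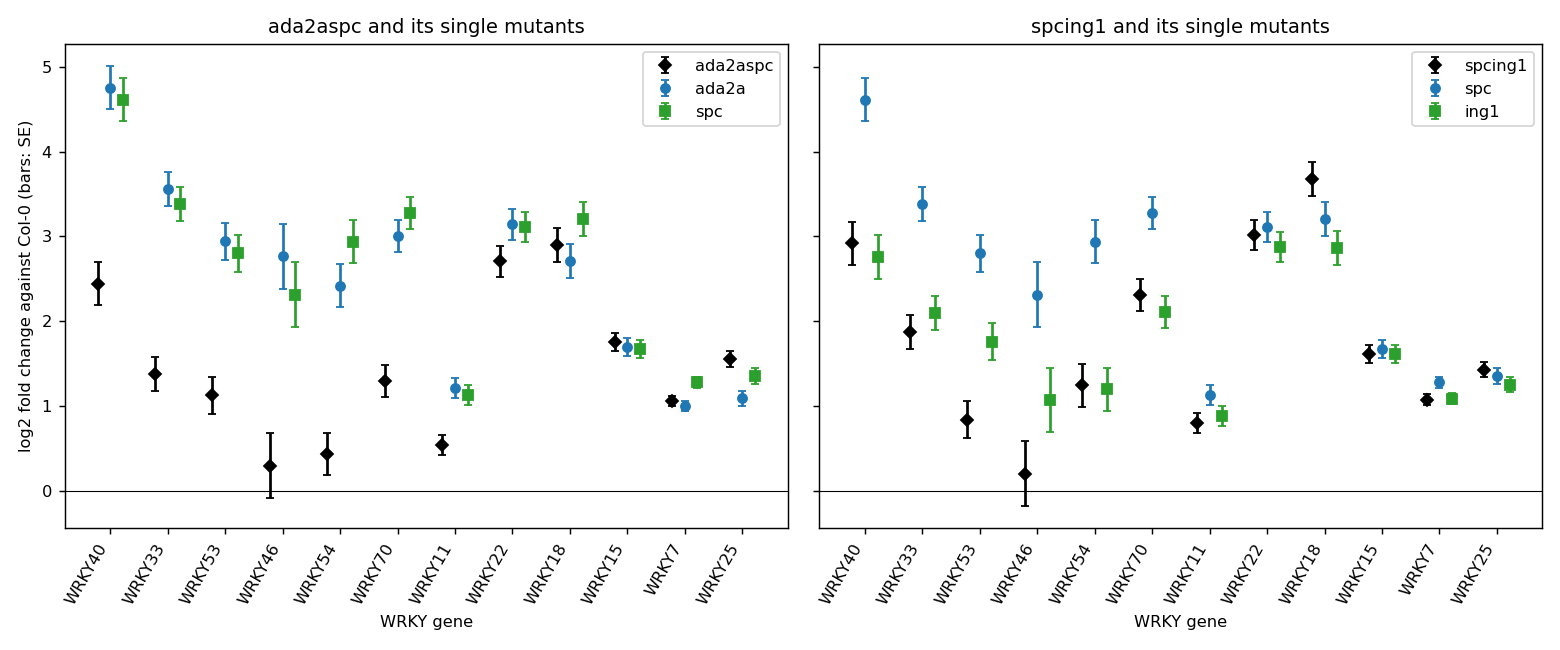
Log2 fold change against Col-0 (points, bars give the SE; 3 libraries a genotype) of 12 WRKY genes in each double mutant (black) and its single mutants. WRKY40, WRKY33, WRKY53, WRKY46, WRKY54 and WRKY70 are lower in ada2aspc than in ada2a and spc, while the differences of WRKY22, WRKY18 and WRKY15 did not pass.

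The eaf6 mutant was also set against the mean of ada2a, spc, ing1 and sdrl. There were 16 higher and 14 lower WRKY genes in eaf6 (23.3% and 24.8% of all genes), and 19 higher and 9 lower with column totals, which moves the median of all genes to 0.13. With column totals 7238 of all genes were higher and 3523 lower. Among the higher WRKY genes were WRKY62 (2.93 ± 0.74 (adjusted p = 0.0017)), WRKY51 (2.66 ± 0.59 (adjusted p = 0.000494)) and WRKY38 (0.89 ± 0.28 (adjusted p = 0.00911)). WRKY31 (1.45 ± 0.29 (adjusted p = 0.000153)), WRKY29 (0.92 ± 0.19 (adjusted p = 0.000273)), WRKY75 (0.71 ± 0.18), WRKY60 (0.71 ± 0.14) and WRKY65 (0.68 ± 0.07 (adjusted p = 1.36e-08)) were higher too. For each of these 8 genes all eaf6 libraries were above all 12 libraries of the other 4 mutants. How many of all genes separate so was not counted. With a pseudocount of 16 the values of WRKY62 and WRKY51 were 1.76 and 1.61, and the WRKY38 call was lost without eaf6 replicate 1 (adjusted p = 0.0538).

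WRKY31 had 136, 86.5 and 173 in eaf6, against 70.5, 39.9 and 77.7 in Col-0. WRKY65 had 1942, 1882 and 1956 in eaf6, against 1248, 1271 and 1177 in Col-0. The lower genes included WRKY40 (-1.41 ± 0.20 (adjusted p = 1.32e-06)), WRKY33 (-1.23 ± 0.16 (adjusted p = 3.03e-07)), WRKY70 (-0.77 ± 0.15 (adjusted p = 0.00011)), WRKY2 (-0.76 ± 0.08 (adjusted p = 4.91e-09)), WRKY32 (-0.46 ± 0.09) and WRKY53 (-0.46 ± 0.17 (adjusted p = 0.0285)). The WRKY53 call was lost with column totals (-0.35, adjusted p = 0.106) and without eaf6 replicate 2 or 3 (adjusted p = 0.0691 to 0.163). Touch genes were lower in eaf6 in this contrast, 4 of 6, and none was higher, and their part in the lower WRKY values was not tested.

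Several kinases act on WRKY proteins. Of 10 listed kinase genes 7 rose and 0 fell in ada2a, spc and ada2aspc, 7 rose and 1 fell in sdrl and spcing1, 6 rose and 0 fell in eaf6, and 6 rose and 1 fell in ing1. In ada2b 5 rose and 1 fell, and in gcn5 2 rose and 1 fell. Over these 9 contrasts 15.1% to 25.2% of all genes rose and 14.5% to 28.1% fell, with 18.2% and 24.5% in gcn5. The median log2 fold change of the kinases was 0.03 in gcn5 to 0.95 in spc. MPK3, which phosphorylates WRKY33, rose by 2.21 ± 0.13 (adjusted p = 6e-14) in ada2a and 1.34 ± 0.13 (adjusted p = 1.53e-09) in eaf6, and fell in gcn5 (-0.39 ± 0.13 (adjusted p = 0.0197)). MKK9, a kinase upstream of MPK3 and MPK6, rose by 2.37 ± 0.16 (adjusted p = 5.3e-13) in ada2a, 1.91 ± 0.16 (adjusted p = 4.38e-11) in eaf6, 2.09 ± 0.16 (adjusted p = 3.03e-12) in ada2b and 0.94 ± 0.16 (adjusted p = 1.88e-05) in gcn5. MEKK1, which starts such a cascade and binds WRKY53, rose by 0.91 ± 0.07 in ada2a, 0.67 ± 0.07 in eaf6 and 0.33 ± 0.07 in ada2b. In ada2aspc MPK3 and MKK9 were lower than in ada2a (-0.91 ± 0.13 (adjusted p = 1.59e-05) and -1.03 ± 0.16 (adjusted p = 3.06e-05)), with 4 of 10 kinases lower and 1 higher (7.93% and 6.77% of all genes).

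VQ proteins bind WRKY factors, and of 6 tested VQ genes 6 rose in eaf6, spc and spcing1, 5 in ada2a, 4 in ing1, sdrl and ada2aspc, 3 in ada2b and 1 in gcn5, while 1 fell in each of ada2b and gcn5. Among all genes 15.1% to 25.2% rose and 14.5% to 28.1% fell over the 9 mutants. The gcn5 counts are close to the 18.2% and 24.5% of all genes that rose and fell there. SIB1, a VQ partner of WRKY33, rose by 2.44 ± 0.27 (adjusted p = 1.87e-08) in ada2a, 1.5 ± 0.27 (adjusted p = 2.66e-05) in eaf6, 1.02 ± 0.27 (adjusted p = 0.00208) in ada2b and 1.26 ± 0.27 (adjusted p = 0.000305) in gcn5, and MKS1, which links WRKY33 to the kinase MPK4, by 0.97 ± 0.18 (adjusted p = 0.000113) in ada2a. VQ9 fell in gcn5 (-1.12 ± 0.14 (adjusted p = 1.67e-07)) and ada2b (-0.47 ± 0.14 (adjusted p = 0.00591)). Of 6 immune receptor and signalling genes 5 rose and 0 fell in sdrl, eaf6 and ada2aspc, 4 rose and 0 fell in ada2a, ing1 and spcing1, 3 rose and 1 fell in spc, 3 rose and 3 fell in ada2b, and 2 rose and 2 fell in gcn5. Over these 9 contrasts 15.1% to 25.2% of all genes rose and 14.5% to 28.1% fell, with 23.5% and 28.1% in ada2b. RBOHD, the oxidase of the immune oxidative burst, rose in ada2a (1.89 ± 0.13 (adjusted p = 1.01e-12)) and fell in ada2b (-1.36 ± 0.13 (adjusted p = 4.43e-10)) and gcn5 (-0.69 ± 0.13 (adjusted p = 8.22e-05)). FLS2, the flagellin receptor, fell in ada2b (-1.59 ± 0.09 (adjusted p = 5.72e-15)) and gcn5 (-0.88 ± 0.09 (adjusted p = 5.4e-09)).

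Of 11 genes reported elsewhere as direct WRKY targets 8 rose and 0 fell in eaf6, where 25.2% and 25.9% of all genes did. In the other mutants the counts were 5 and 1 in ada2aspc, 4 and 0 in ada2a, 4 and 1 in ing1, 4 and 2 in spc and in spcing1, 3 and 1 in sdrl and in gcn5, and 3 and 3 in ada2b. In ada2b, with 23.5% and 28.1% of all genes, the counts are close to those of all genes. In gcn5 18.2% of all genes rose and 24.5% fell. SARD1, an activator of salicylic acid synthesis, rose by 3.64 ± 0.32 (adjusted p = 1.9e-10) in ada2a and 2.62 ± 0.32 (adjusted p = 6.69e-08) in eaf6. PHO1, which WRKY6 and WRKY42 are known to repress, fell in ada2b (-1.14 ± 0.10 (adjusted p = 3.09e-11)) and gcn5 (-0.61 ± 0.10 (adjusted p = 7.59e-06)), where WRKY6 was higher and WRKY42 lower, and rose in eaf6 (0.60 ± 0.10 (adjusted p = 7.23e-06)). PHT1;1, a known target of WRKY45, rose in ada2b (0.80 ± 0.12 (adjusted p = 1.18e-06)), where WRKY45 was lower, and in gcn5 (0.74 ± 0.12 (adjusted p = 6.73e-06)), where WRKY45 was higher.

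Reads were assigned to genes by the authors with no statement on strand, and 9 WRKY genes overlap a gene on the opposite strand in the annotation. They are WRKY1, WRKY2, WRKY4, WRKY29, WRKY33, WRKY40, WRKY41, WRKY53 and WRKY69, so reads of the overlapping partner may be included in their signal.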

How the data were processed

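The authors deposited a table of normalised signal per gene for 30 messenger RNA libraries. The tools named are bcl2fastq, HISAT2 and edgeR, and the build TAIR10, per the submitters' processing notes. Tool versions, the read counter, its strand setting and the step that normalised the signal are not given in the sources used here. Deposited signals are not whole, and whole reads could not be recovered for nearly all genes, so the depth in reads is unknown and no count test was run.

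From these values limma 3.58.1 in R 4.3.3 was fitted to log2(signal + 1) of genes with at least 10 in at least 3 libraries, with a term per genotype, trended empirical Bayes variances, 20 residual degrees of freedom and Benjamini-Hochberg adjustment over 21868 genes. The log2 scale with a pseudocount understates the change of low genes. The test was also run on data simulated from the Col-0 means and the gene spreads of this fit. No pair of columns was identical, and each library counted as a replicate.

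The WRKY members and the lists of kinases, VQ partners, receptors, reported targets, touch, clock and tissue genes were chosen with earlier results of these data known. Values in every library are given for up to 2 members per subgroup with the most contrasts past the threshold, and for the 2 largest rises and 2 largest falls in gcn5, ada2b and eaf6 against Col-0 and in ada2b against gcn5. From each pathway list up to 4 genes with the smallest adjusted p were named. Alternatives were another pseudocount, no filter, median-of-ratios size factors, column totals, the replicate number as a block, only the groups compared, a minimum change of 2-fold and leaving out each library. Positions, exon lengths and promoter sequences came from RefSeq's TAIR10.1 annotation. Python 3.11.15 with matplotlib 3.10.9 made the figures.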

Additional observations from a re-analysis of the deposited data

Results flagged for a closer look

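The effect of losing SPC differed between the ada2a and the wild-type background for 17 WRKY genes (10.8% of all genes negative, 7.76% positive). The test was the double mutant minus both single mutants plus Col-0. The log2 deviations in ada2aspc below -4 were -6.93 for WRKY40, -5.56 for WRKY33, -4.99 for WRKY70, -4.92 for WRKY54, -4.78 for WRKY46 and -4.62 for WRKY53. Those between -4 and -1.5 were -3.55 for WRKY22, -3.01 for WRKY18, -2.24 for WRKY38, -1.80 for WRKY11 and -1.61 for WRKY15. The smaller ones were -1.22 for WRKY7, -1.12 for WRKY48, -0.89 for WRKY25, -0.79 for WRKY44, -0.72 for WRKY2 and -0.50 for WRKY57. All were negative, so the double mutant lay below the sum of the single effects on the log2 scale. A gene raised by like amounts in both single mutants and the double mutant, such as WRKY15, is also negative by this test. The call of WRKY44 was lost without ada2a replicate 1 or 3, spc replicate 2 or 3, ada2aspc replicate 1 or 2 or Col-0 replicate 2 (adjusted p = 0.0552 to 0.0925). That of WRKY57 was lost without ada2a replicate 1 or 3, spc replicate 2 or 3, ada2aspc replicate 2 or 3 or Col-0 replicate 1 or 2 (adjusted p = 0.0508 to 0.17).

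In spcing1 the same test picked out 19 WRKY genes (10.7% of all genes negative, 7.95% positive). The log2 deviations below -2 were -4.45 for WRKY40, -3.72 for WRKY53, -3.61 for WRKY33, -3.18 for WRKY46, -3.07 for WRKY70, -2.97 for WRKY22, -2.89 for WRKY54 and -2.38 for WRKY18. Those between -2 and -1 were -1.67 for WRKY15, -1.39 for WRKY38, -1.30 for WRKY7, -1.21 for WRKY11, -1.18 for WRKY25 and -1.11 for WRKY48. The smaller ones were -0.82 for WRKY44, -0.68 for WRKY57, -0.52 for WRKY26, -0.43 for WRKY2 and -0.38 for WRKY39. In spcing1 leaving out Col-0 replicate 3 ended the call of WRKY26 (adjusted p = 0.062). That of WRKY2 was lost without spc replicate 3, ing1 replicate 1, spcing1 replicate 1 or 2 or Col-0 replicate 1 (adjusted p = 0.0509 to 0.0652). That of WRKY44 was lost without spc replicate 2 or 3, ing1 replicate 2, spcing1 replicate 1 or Col-0 replicate 2 (adjusted p = 0.065 to 0.0794). That of WRKY38 was lost without any spc library, ing1 replicate 2 or 3, spcing1 replicate 1 or 2 or Col-0 replicate 2 or 3 (adjusted p = 0.0528 to 0.152). The 6 touch genes also had negative deviations in both double mutants, with a median of -5.04 in ada2aspc and -3.85 in spcing1, and their part in the WRKY deviations was not tested.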

How the results depend on the processing

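The number of WRKY genes past the threshold stayed within 1.5 times its main value in every contrast with the replicate block, a pseudocount of 16, no filter on low values and both other scalings. Of the WRKY fold changes past the threshold in either fit, 8 had the opposite sign with column totals and none under the other alternatives. They were WRKY4 (0.21) and WRKY21 (0.19) in ada2b against Col-0, WRKY2 (-0.048), WRKY4 (-0.087), WRKY20 (-0.33) and WRKY7 (-0.10) in ada2a against ada2b, and WRKY26 (-0.25) and WRKY7 (-0.047) in ada2a against gcn5. Of 467 values that did not pass, 145 changed sign when a library was left out. Alternatives for genes and contrasts between mutants beyond the planned ones were added after seeing the data. A minimum change of 2-fold cut the counts to 5 in gcn5, 7 in ada2b, 13 in spc, 11 in ing1, 7 in sdrl, 16 in eaf6, 11 in ada2aspc and 11 in spcing1 against Col-0. It also cut them to 8 in ada2b against gcn5, 13 in ada2a against ada2b, 14 in ada2a against gcn5, 6 in ada2aspc against each of ada2a and spc, 5 in spcing1 against spc, 0 in spcing1 against ing1 and 5 in eaf6 against the mean of ada2a, spc, ing1 and sdrl. For spcing1 against ing1, with 3 genes in all, a fit of only these groups gave 1 gene, and leaving out a library gave 0 to 3. The cause was not tested.

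Replicate numbers did not pair the samples: the deviations of same-numbered mutant and Col-0 libraries correlated at -0.0497 to 0.0275 over 27 pairs. With the replicate number as a block the counts were 23 in gcn5, 30 in ada2b, 19 in ada2a, 25 in spc, 21 in ing1, 18 in sdrl, 32 in eaf6, 21 in ada2aspc and 28 in spcing1 against Col-0. Calls against Col-0 lost under the block were WRKY4 and WRKY14 in ada2a (adjusted p = 0.0507 and 0.0571), WRKY45 in sdrl (0.0521), WRKY28 in eaf6 (0.051) and WRKY35 in ada2aspc (0.051), the last also with median-of-ratios size factors (0.0515). Without the filter, WRKY33 and WRKY53 in gcn5 (0.0572 and 0.0658), WRKY38 in ada2b and spcing1 (0.0651 and 0.055), WRKY14 in ada2a (0.0564), WRKY44 in spc (0.0564), WRKY47 in ing1 (0.0537), WRKY45 in sdrl (0.0595), WRKY28 in eaf6 (0.0633) and WRKY35 in ada2aspc (0.0639) were lost. A fit of only the groups compared lost WRKY53 in gcn5, WRKY45, WRKY15, WRKY17, WRKY38 and WRKY46 in ada2b, WRKY4, WRKY14 and WRKY39 in ada2a, WRKY44 in spc, WRKY4 and WRKY45 in sdrl, WRKY28 and WRKY39 in eaf6 and WRKY23 in ada2aspc (adjusted p = 0.0524 to 0.131). With 3 libraries a genotype, genes near a signal of 10, such as WRKY51, WRKY55, WRKY62 and WRKY30, are the least certain.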
